A study of Danio rerio with 34 samples.

Results

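The regions described here are 500 bp tiles of the zebrafish genome whose DNA methylation was called different between *dnmt1* mutants and siblings in endothelial cells (ECs), in hemogenic endothelial cells (HECs) and again in hematopoietic stem and progenitor cells (HSPCs). A tile was a member when the same coordinates stood in all 3 deposited lists of differentially methylated regions (DMRs), on any chromosome other than chromosome 4. The 24 remaining chromosomes held 10538 such tiles, of 337981 tiles present in at least 1 of the lists, and scaffolds were not counted. The tiles were thus chosen by the calls themselves, that is, by the measured difference in methylation level and its *P*-value in each cell type, and their presence in the lists is a description without a test.

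Whole genome bisulfite sequencing (WGBS) was performed on 18 samples, 3 of *dnmt1* mutants and 3 of siblings for each cell type. The mutants carried the *dnmt1* allele named s872 by the study, and their siblings served as the reference. All embryos were at 36 h post fertilization and carried the *kdrl*:mCherry and *runx1*:en-GFP transgenes by which the cells were sorted from the trunk, so the cell types rest on reporter lines rather than on the endogenous genes. By the study's methods a WGBS sample held 500 sorted cells, whereas the protocol in the sample labels describes sorting of single cells. Each list was called once on all 6 samples of a cell type and gives only coordinates on GRCz11. It holds no methylation level, no direction and no coverage. The depth behind a call is therefore unknown, gain or loss of methylation in mutants cannot be read from the tiles, and the values below have no replicate error. The study itself reports that DMRs with lower methylation in mutants outnumbered those with higher methylation in each cell type. It also reports lower mean methylation in the mutants.

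Dnmt1 is the maintenance DNA methyltransferase. After DNA replication it copies the methylation of the parental strand onto the new strand at CpG sites, and Uhrf1 brings it to sites that carry the mark on one strand. In vertebrate cells that divide without this enzyme, methylation is diluted over successive rounds of replication. HECs arise within the endothelium of the dorsal aorta and give rise to HSPCs through endothelial-to-hematopoietic transition. The 3 populations were sorted at the same stage, so they stand for these cell types and are not successive samples of the same cells. A tile called in all of them differed between mutants and siblings in each of these populations. Whether the direction was the same in each is unknown.

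Common tiles were a small share of each list of called tiles. A tile missing from a list may lack reads or fall short of the cutoffs. Its absence therefore does not show that its methylation was unchanged in that cell type. Unless stated otherwise, list sizes here and below leave out chromosome 4 and scaffolds. Common tiles made up 8.72% of the 120836 tiles of the EC list and 9.80% of the 107513 tiles of the HEC list. Of the 201934 tiles of the HSPC list they made up 5.22%. Together they covered 5.27 Mb. Counted over all 500 bp tiles up to the last listed tile of each chromosome, 4.77% were called in ECs, 4.24% in HECs and 7.97% in HSPCs, and 0.416% were common to the 3 lists. How many of those tiles had enough reads to be tested is not given in the sources used here, so these background shares are lower limits of the shares among testable tiles.

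Just outside the rule stood 71226 tiles that were in exactly 2 lists, and 256217 tiles were in exactly 1. Most of the tiles in exactly 2 lists included HSPCs, with 30823 in the EC and HSPC lists but not in the HEC list and 27988 in the HEC and HSPC lists but not in the EC list. Only 12415 were in the EC and HEC lists and missing from the HSPC list. The HSPC list was also the longest, so raw counts favour pairs that include it. Of its 201934 tiles, 58811 were in exactly 2 lists. This was a smaller share than the 43238 of 120836 EC tiles and the 40403 of 107513 HEC tiles. Of the 22953 tiles called in both ECs and HECs, 45.9% were also called in HSPCs. The HSPC list held a lower share of the tiles called in ECs and not in HECs, at 31.5%, and of those called in HECs and not in ECs, at 33.1%. By chromosome the share for tiles called in both ranged from 41.8% on chromosome 17 to 49.4% on chromosome 19, and on 24 of 24 chromosomes it was above both other shares. The tiles counted in this share are the common tiles themselves. It thus comes from the calls that chose them and is a description without a test.

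Some tiles missing from the third list lay beside a tile which that list did hold. Of the tiles in the EC and HEC lists only, 33.5% touched a tile called in HSPCs, against 27.9% of tiles called in only ECs or only HECs. Of those in the HEC and HSPC lists only, 22.7% touched a tile called in ECs, and of those in the EC and HSPC lists only, 20.6% touched a tile called in HECs. The corresponding shares of tiles in a single one of those lists were 18.0% and 16.6%. The share of all tiles with such a touching tile was not computed.

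Common tiles were found on all 24 chromosomes, and chromosome 19 was the densest. It held 617 of them, or 12.7 per Mb, which was 1.53 times the median chromosome. Chromosome 15 followed with 499 tiles, or 10.4 per Mb, then chromosome 21 with 450 tiles, or 9.80 per Mb, and chromosome 3 with 600 tiles, or 9.58 per Mb. The sparsest were chromosome 6 with 404 tiles, or 6.70 per Mb, and chromosome 18 with 346 tiles, or 6.78 per Mb. The other 18 chromosomes lay between 7.12 and 9.05 common tiles per Mb.

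The number of tiles called in any cell type was also highest on chromosome 19, at 345 per Mb. Per 1000 tiles called in any list, chromosome 19 had 36.9 common tiles and the median chromosome 30.9, so its excess was 1.19 times on that scale. Each list was also densest there, with 124 EC, 112 HEC and 208 HSPC tiles per Mb. The chromosome medians were 94.0, 82.7 and 159. Division by the tiles in any list does not remove these call rates, and their part was not tested. The lowest value was 27.7 on chromosome 17. On this scale chromosome 15 had 32.4, above the median but behind chromosomes 3, 21 and 12, at 34.0, 33.6 and 32.9. Chromosome 19 had the highest share of common tiles in each list, with 10.2% of its EC tiles, 11.4% of its HEC tiles and 6.11% of its HSPC tiles, against chromosome medians of 8.78%, 9.75% and 5.18%.

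**Figure D1:**
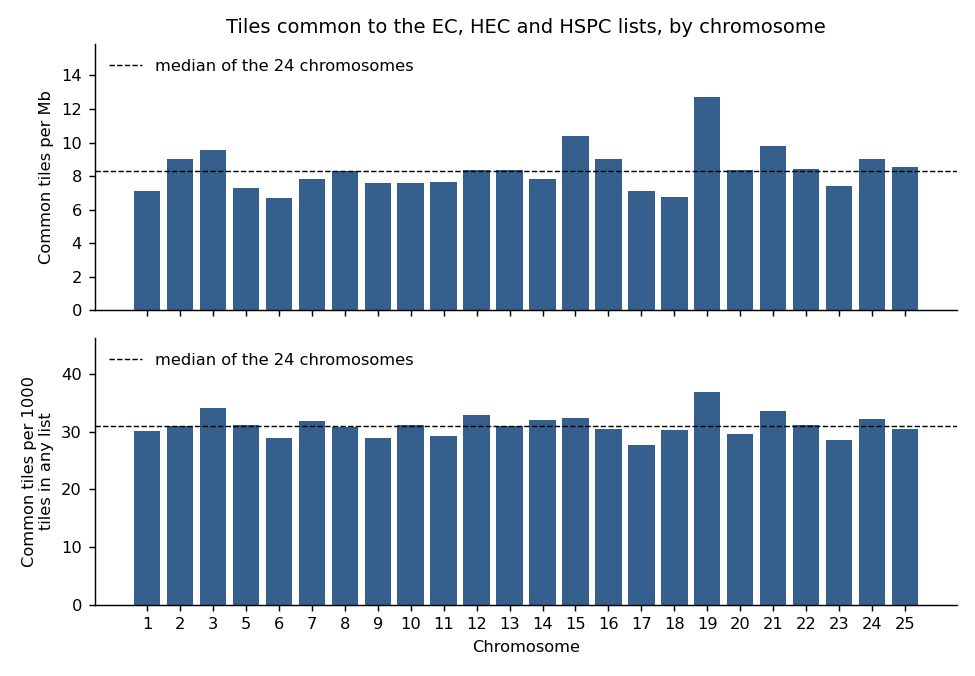
Bars give the number of common tiles on each of 24 chromosomes, per Mb in the upper panel and per 1000 tiles called in any of the 3 lists in the lower panel, and dashed lines mark the median of the chromosomes. Chromosome 19 is highest in both panels, at 12.7 per Mb and 36.9 per 1000 tiles, and chromosome 15, next to it at 10.4 per Mb, has 32.4 per 1000 tiles and is then below chromosomes 3, 21 and 12.

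Common tiles were concentrated towards the ends of chromosomes. When each chromosome was divided into 10 equal segments, the first segment held 15.7% and the last 14.3% of them, and the fifth held 7.53%. The outer 1 Mb at both ends covered 3.79% of the length and contained 883 common tiles, or 8.38%. This was a density of 18.4 tiles per Mb, against 8.32 over whole chromosomes. The start of the chromosomes contributed 460 of these tiles and the far end 423, so both ends took part. Every one of the 24 chromosomes had more of its common tiles in the outer 1 Mb than the length alone would hold.

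Tiles called in fewer cell types had the same shape, with a smaller excess in the outer 1 Mb. The order was not the same in the last of the 10 segments. There tiles in 2 lists held 14.5%, above the 14.3% of common tiles, and tiles in 1 list held 13.8%. The outer 1 Mb held 8.38% of common tiles, 7.68% of tiles in 2 lists and 6.39% of tiles in 1 list. On 21 of 24 chromosomes the share of common tiles was above that of tiles in 1 list, and on 19 it was above that of tiles in 2 lists. With the outer 2 Mb these numbers were 22 and 16 chromosomes, and with the outer 5 Mb they were 19 and 14. Over the outer 5 Mb the shares were closer, with 28.6% of common tiles, 28.1% of tiles in 2 lists and 26.2% of tiles in 1 list. In the outer 1 Mb there were 341 tiles in 1 list per Mb, against 202 over whole chromosomes. For tiles in 2 lists these densities were 114 and 56.2. Where calls are denser in every list, a larger excess of common tiles would arise even from unrelated lists. The part of the call rates was not tested. Gene content, repeats and read coverage near chromosome ends could not be set beside these values, and their part was not tested.

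**Figure D2:**
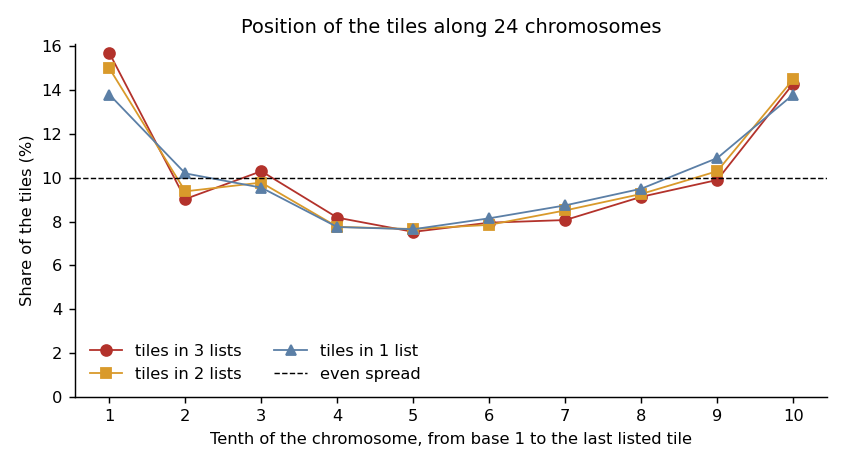
Lines give the percentage of tiles in each of 10 equal segments from the first base to the last listed tile of a chromosome, pooled over 24 chromosomes, for tiles in 3 lists, in 2 lists and in 1 list, and the dashed line marks an even spread. All the lines are highest in the outermost segments, and common tiles reach 15.7% in the first segment, against 13.8% for tiles in 1 list. In the last segment tiles in 2 lists are highest, at 14.5%, against 14.3% for common tiles.

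In 1 Mb windows the number of common tiles ranged from 0 to 34, with a median of 7 and an interquartile range of 4 to 11 over 1258 full windows. There were 59 windows with 20 or more, and these held 13.8% of the common tiles in full windows. Another 34 windows held none. The windows without common tiles had a median of 62.5 tiles in any list and a range from 4 to 305. Their median lay within the range of the 315 windows with the fewest such tiles, 4 to 180, but their highest value did not. Across windows the number of common tiles followed the number of tiles in exactly 1 list, with a Pearson correlation of 0.760 and a Spearman correlation of 0.774. Both counts come from the same samples and neighbouring windows are not independent, so these are descriptions only.

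**Figure D3:**
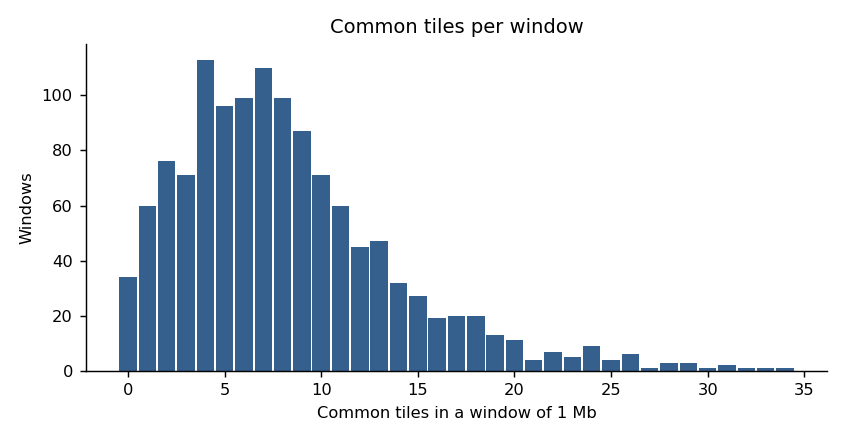
Bars give the number of full 1 Mb windows that held each number of common tiles on the 24 chromosomes. Most windows lie between 4 and 11 common tiles, 34 windows hold none and the fullest window holds 34.

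The fullest window was chr12:14000001-15000000 with 34 common tiles. It held 225 tiles called in ECs, 172 in HECs and 376 in HSPCs, and 555 in any list. Next was chr5:54000001-55000000 with 33 common tiles, from lists of 148 EC tiles, 146 HEC tiles and 269 HSPC tiles. With only 391 tiles in any list, this window had 84.4 common tiles per 1000, the highest of the 10 fullest windows. The third was the start of chromosome 15, chr15:1-1000000, where 32 of 658 tiles were common. The window chr10:11000001-12000000 held 31 common tiles of 438, or 70.8 per 1000. The start of chromosome 24, chr24:1-1000000, also held 31, among 659 tiles.

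The fullest windows were thus of different kinds. At the starts of chromosomes 15 and 24 there were many common tiles among many called tiles, at 48.6 and 47.0 per 1000. The windows on chromosomes 5 and 10 lay inside the chromosome and reached similar numbers of common tiles from fewer called tiles. On chromosome 5 the common tiles were packed into the first 500 kb of the window, where chr5:54000001-54500000 held 27 of the 33, or 101 per 1000 of its 267 called tiles. On chromosome 10 the second 500 kb, chr10:11500001-12000000, held 21 of the 31. When windows were shifted by 500 kb, chr10:11500001-12500000 came first with 38 common tiles and chr5:53500001-54500000 second with 37.

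The share of common tiles was higher where more tiles were called. In the 315 windows with the fewest tiles in any list (4 to 180), 26.2 of every 1000 were common, and in the 314 windows with the most (346 to 691), 35.3 were. The groups of windows between them had 27.9 and 29.6. The windows were grouped by the number of tiles in any list, and division by that number does not remove the call rates. Where every list holds more tiles, a larger share of common tiles would arise even from unrelated lists. The part of the call rates in this rise was not tested. Tiles called in both ECs and HECs were called in HSPCs at 44.7% in the emptiest group of windows and 47.2% in the fullest. For tiles called in ECs and not HECs these shares were 28.1% and 34.3%. In every group of windows the share was highest for tiles called in both cell types. These shares come from the calls that define common tiles and are descriptions only.

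Nearly all common tiles stood alone. After touching tiles were merged, 10289 regions remained, of which 10047 were single tiles, 235 were pairs and 7 were runs of 3, and only 4.66% of common tiles were in a pair or a run. The median distance between the starts of consecutive common tiles was 55.5 kb, with an interquartile range of 19 to 139.5 kb. The longest stretch without any was chr18:19700501-23215000, at 3.51 Mb. It was also poor in other calls, with 63 tiles called in ECs, 50 in HECs and 130 in HSPCs. The next longest was chr1:19998501-22653500, at 2.65 Mb, with 39, 35 and 65 tiles.

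Although most touched no other common tile, common tiles had others near them more often than the genome at large. Of the places directly beside a common tile, 2.36% held another, which is 5.68 times the background of 0.416%. By chromosome this share ranged from 0.312% on chromosome 25 to 3.83% on chromosome 3, with a median of 2.42%, and it was above the chromosome's own background on 23 of 24. It was 1.33% at a distance of 1 kb and 0.996% at 3 kb. Further out the values were uneven, with 0.588% at 4 kb, 0.816% at 5 kb, 0.569% at 100 kb and 0.512% at 500 kb, all above the background. The shares and the background alike count tiles that may not have been testable, so their ratio over testable tiles is unknown. Common tiles were also more frequent beside other called tiles. They held 1.68% of the places directly beside tiles in 2 lists, or 4.05 times the background, and 1.02% of those beside tiles in 1 list, or 2.46 times. From 4 kb on, common tiles no longer had a steady lead, since at 4 kb and 10 kb the places around tiles in 2 lists held 0.753% and 0.700%, against 0.588% and 0.626% around common tiles.

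All 7 runs of touching common tiles were 1500 bp long, and they differed in their surroundings. The run chr3:3986001-3987500 had few calls around it. Of the 20 tiles within 5 kb of it, 1 was called in HECs and none in ECs or HSPCs. The run chr20:28357001-28358500 had as few, with 1 tile called in HSPCs in the same flanks. Of all tiles, 4.77% were in the EC list, 4.24% in the HEC list, 7.97% in the HSPC list and 13.3% in any list. Counts this low in 20 tiles are not far from these shares, and no flank was tested against them. In contrast, the flanks of chr19:18892001-18893500 held 5 tiles called in ECs, 4 in HECs and 8 in HSPCs, and 12 of their 20 tiles were in some list. The flanks of chr13:32034001-32035500 had 4 tiles called in ECs, 4 in HECs and 5 in HSPCs.

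The remaining runs lay between these extremes. Around chr7:72231001-72232500 the flanks held 1 tile called in ECs, 1 in HECs and 6 in HSPCs, so that the calls beyond the run were mostly those of HSPCs. Around chr9:15326501-15328000 they held 4, 2 and 4, and around chr13:33194501-33196000 they held 1, 3 and 4. This last run is 1.16 Mb from the other run on chromosome 13.

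Common tiles also gathered in looser groups. The region chr24:20865001-20871500 was the fullest when gaps of up to 4.5 kb were allowed, and 6 of its 13 tiles were common, with 6 tiles called in ECs, 8 in HECs and 7 in HSPCs. In chr9:49881001-49885000 5 of 8 tiles were common, and every one of the 8 was called in HSPCs. At the end of chromosome 5, chr5:72400001-72412500 had 5 common tiles among 25, and 9 were called in ECs, 10 in HECs and 10 in HSPCs. A region of 14 tiles on chromosome 17, chr17:31099501-31106500, also had 5, and here 8 tiles were called in ECs, 10 in HECs and 12 in HSPCs. On chromosome 6, chr6:59014001-59027500 had 5 common tiles among 27, with 7 tiles called in ECs, 5 in HECs and 10 in HSPCs. Each group begins and ends with a common tile, so its share of common tiles depends in part on the merging.

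Runs of touching tiles within a single list could contain several common tiles, but few common tiles were in long runs. Runs of 5 or more tiles held 0.323% of common tiles in the EC list, 0.342% in the HEC list and 2.94% in the HSPC list. For the other tiles of these lists the shares were 0.17%, 0.16% and 1.7%. The longest HSPC run, chr7:2001-10500 near the start of chromosome 7, was 17 tiles long and 4 of them were common. The longest EC run was chr3:46871501-46876000, with 4 common tiles among 9. The longest HEC runs had 6 tiles. One of them, chr24:20865001-20868000, held 4 common tiles and is part of the loose group on chromosome 24. Another, chr7:72246501-72249500, held 2 and lies close to the run of common tiles on chromosome 7. When tiles of any list were joined, the longest region was chr17:31098001-31108500, with 21 touching tiles of which 5 were common, and it encloses the group on chromosome 17.

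Tiles beside a common tile were called more often than tiles beside other called tiles. Some list held a touching tile for 60.9% of common tiles, against 55.1% of tiles in 2 lists and 45.7% of tiles in 1 list. All the lists held one for 7.13% of common tiles, against 5.16% and 3.14%. These touching tiles were called in the same samples and contrasts that chose the common tiles, so the shares describe the lists and are not tested.

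Within each list the order was the same. In the EC list 28.1% of common tiles touched another EC tile, against 24.3% of EC tiles in 2 lists and 19.3% of EC tiles in no other list. In the HEC list these shares were 25.6%, 22.6% and 17.2%. In the HSPC list they were 43.3%, 39.2% and 32.6%. Common tiles were above tiles of a single list on 24 of 24 chromosomes in the EC list, on 23 in the HEC list and on 24 in the HSPC list. They were above tiles in 2 lists on 20, 20 and 23 chromosomes. Of all tiles, 4.77% were in the EC list, 4.24% in the HEC list and 7.97% in the HSPC list. The share of all tiles that touch a tile of these lists was not computed.

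**Figure D4:**
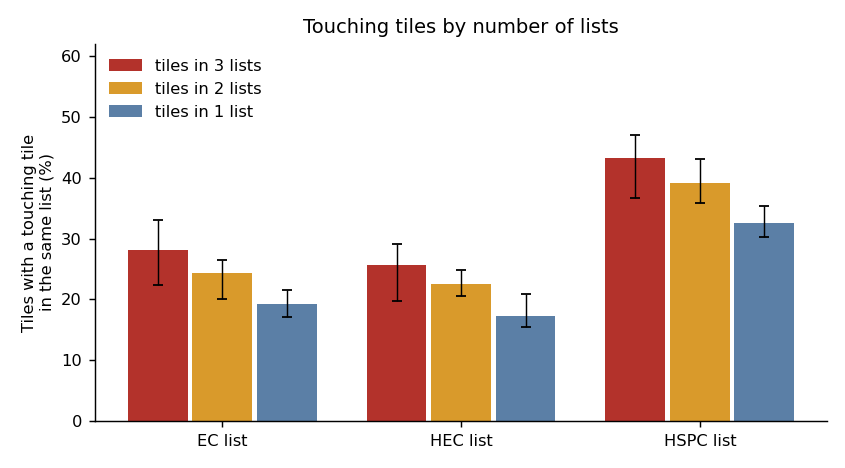
Bars give the percentage of tiles in the EC, HEC and HSPC lists that touch another tile of the same list, for tiles in 3 lists, in 2 lists and in 1 list, and lines span the lowest and highest of 24 chromosomes. In every list the common tiles are highest, at 28.1%, 25.6% and 43.3%, and the spans of common tiles and tiles in 2 lists overlap. The share of all tiles that touch a listed tile was not computed and is not drawn.

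The order was the same away from the ends of chromosomes and in windows with few calls. Without the outer 5 Mb of each chromosome, 27.7% of common tiles touched an EC tile, against 23.7% and 18.6% of EC tiles in 2 lists and in 1 list. For HECs these shares were 25.2%, 21.6% and 16.4%, and for HSPCs 41.9%, 37.8% and 30.9%. In the windows with the fewest called tiles, 37.0% of common tiles touched an HSPC tile, against 34.7% of HSPC tiles in 2 lists and 25.8% in 1 list. In the windows with the most, the shares were 48.7%, 43.8% and 37.9%. Common tiles were highest in all 4 groups of windows for each list.

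The excess around common tiles was mostly short in range. At 0.5 kb, 15.5% of places were called in ECs, 13.9% in HECs and 25.3% in HSPCs, which are 3.24, 3.28 and 3.18 times the backgrounds. Relative to its own background, each cell type thus had nearly the same excess, although the HSPC list was the longest. Places and backgrounds both count tiles that may not have been testable. At 1 kb the ratios were 2.06, 2.12 and 2.15, and at 10 kb they were 1.48, 1.55 and 1.54. At 500 kb they were 1.11, 1.09 and 1.13. Beside tiles in 1 list the ratios at 0.5 kb were 2.04, 2.08 and 2.13, and at 10 kb they were 1.32, 1.35 and 1.34. Common tiles and other called tiles therefore differed most within the first kb.

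**Figure D5:**
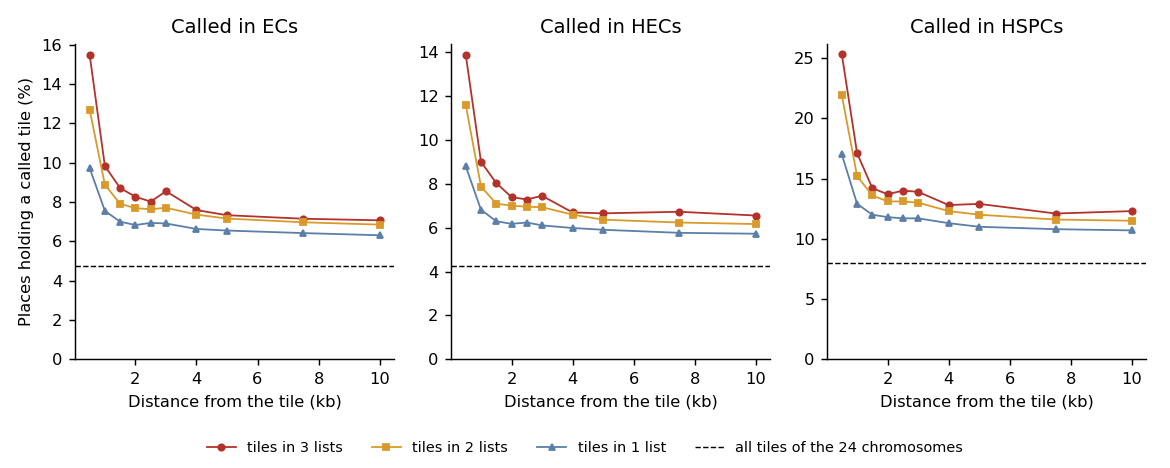
Lines give the percentage of places at 0.5 to 10 kb on either side of a tile that hold a tile called in ECs, HECs or HSPCs, for tiles in 3 lists, in 2 lists and in 1 list, and dashed lines give the share of all tiles of the 24 chromosomes. Beside common tiles the values at 0.5 kb are 15.5%, 13.9% and 25.3%, and at 10 kb they are 7.07%, 6.56% and 12.3%, above the dashed lines at 4.77%, 4.24% and 7.97%.

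A small number of common tiles were also called between cell types of siblings. Of the 10538, 29 were in the list for ECs against HECs, or 0.275%, against 0.0403% of all tiles of the 24 chromosomes. In the list for HECs against HSPCs there were 56, or 0.531%, against 0.123% of all tiles. Other lists give the tiles specific to a single cell type in siblings. The EC-specific list held 11 common tiles, or 0.104%, against 0.00951% of all tiles, and these were 4.56% of its 241 tiles. The HEC-specific list held 9, or 0.0854%, against 0.00663%, and these were 5.36% of its 168 tiles. The HSPC-specific list held 12, or 0.114%, against 0.0429%, and these were 1.10% of its 1087 tiles. In all, 76 common tiles, or 0.721%, were in at least 1 of these lists, against 0.156% of all tiles. The shares were thus small but above those of all tiles. Since all tiles include those without enough reads to be called, their shares are lower limits of the shares among testable tiles. The sibling samples are the same ones that entered the calls against mutants, so these counts are given for the tiles themselves and are not read as an overlap of independent results.

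Of the 184 tiles called at both stages in siblings, which are 0.00726% of all tiles, 9 were common tiles, or 4.89%. They were 0.0854% of the common tiles, and they are the same 9 that the HEC-specific list holds. A tile specific to HECs differs from both ECs and HSPCs, so this match is not a separate result. On chromosome 7, chr7:4259001-4259500 and chr7:4264501-4265000 lie 5 kb apart. The tile chr2:14972501-14973000 lies in the seventh fullest window, which held 29 common tiles. The others were chr5:65954501-65955000, chr11:43588001-43588500, chr13:13326501-13327000, chr15:2536501-2537000, chr20:9075501-9076000 and chr22:6606501-6607000. Which genes or promoters these and the other common tiles overlap was not analysed here.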

How the data were processed

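The authors trimmed WGBS reads with Trim Galore, aligned them to GRCz11 with BS-Seeker2 (version 2.1.8 per the submitters' processing notes) and removed PCR duplicates with SAMtools. Methylation was measured in tiles of 500 bp set end to end along the genome, and a tile was called a DMR at a difference of methylation level over 0.2 and a Benjamini-Hochberg adjusted *P*-value under 0.05, on CpG sites recovered in both groups. The deposited lists hold the coordinates of called tiles, 1 list per comparison and no methylation levels, and 8 lists were used. The rule that defines common tiles, and the comparisons made, were chosen with earlier results of these data known.

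Tiles were compared by identical coordinates in Python 3.11.15 with numpy 2.4.6, pandas 2.3.3 and scipy 1.17.1. A chromosome was taken to end at its last listed tile. Tiles touch when no base lies between them. Background shares are over all 500 bp tiles of the 24 chromosomes. Windows were numbered from base 1, and partial windows were left out of summaries. Named regions are the runs of touching members, the 5 fullest windows and the extreme chromosomes. The looser groups, the list runs, the long empty stretches and the tiles shared with sibling lists were chosen after their values were seen. Plots were drawn with matplotlib 3.10.9. In simulated lists of 9900 tiles, 300 of 300 planted common tiles were found, and 40 of 40 planted runs in another simulation of 420 tiles.

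Counts of RNA-seq in 16 columns and the authors' own fold changes of expression and promoter methylation were not used, because no coordinates of genes on GRCz11 were at hand and sequence composition and gene annotation of the tiles were not analysed here.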

Additional observations from a re-analysis of the deposited data

How the results depend on the processing

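What counts as shared moved the number of common tiles most. Of the 107513 HEC tiles, 25649 lay within 500 bp and 35535 within 1 kb of a tile of both other lists, against 10538 identical tiles. A wider match would take in more tiles even from unrelated lists, and its part in this rise was not tested. With chromosome 4 and scaffolds the number of identical tiles was 11541. The density of chromosome 19 over the median chromosome was 1.53 per Mb and 1.19 per 1000 tiles in any list. The share of common tiles in runs was 6.93% with a gap of 1 tile and 18.4% with gaps of up to 4.5 kb, against 4.66%. The densest window reached 54 common tiles per Mb in 500 kb windows, on chromosome 5, and 38 in shifted windows, on chromosome 10, against 34. A tile of any list lay within 1 kb of 73.7% of common tiles and touched 60.9%. That share was 58.2% when other common tiles were not counted, 59.7% without the outer 5 Mb of chromosomes and 60.7% without chromosome 19. The last pair were chosen after seeing the data. The shares of all tiles with a called tile touching them or within 1 kb were not computed. Lengths from an assembly, sequence composition, gene annotation and expression were not run because no genome or annotation of GRCz11 was at hand. No paired analysis was possible because a list pools the replicates of both genotypes and no result comes from a test, and for the same reason no replicate could be left out. A stricter threshold could not be tried, since the lists hold no *P*-values, and the depth behind each call is unknown.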
